A study of Homo sapiens with 5 samples.

Results

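The genes described here carry the melanocortin and endothelin signals that pigment cells receive from their surroundings. There are 10 of them, chosen by name for their role in the pathway by a rule that uses no measured value, among 31029 genes listed for both cell lines. The choice was made with earlier results of these data known. They are the receptors MC1R and EDNRB, the ligand genes EDN1 and POMC, the G protein alpha subunits GNAS, GNAQ and GNA11, the cAMP phosphodiesterases PDE4B and PDE4D, and the cAMP-responsive transcription factor CREM. Every member had a row in the counts of both lines.

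Melanocytes are instructed by hormones made mostly by keratinocytes. Melanocortin peptides, cut from the POMC precursor, bind MC1R, which acts through the stimulatory alpha subunit encoded by GNAS to activate adenylyl cyclase, raise cAMP and activate protein kinase A and the CREB family of transcription factors. Endothelins, of which EDN1 encodes endothelin-1, bind EDNRB, which acts largely through the closely related alpha subunits GNAQ and GNA11 to activate phospholipase C beta and protein kinase C. Phosphodiesterases of the PDE4 family degrade cAMP, and CREM encodes activators and, from an internal promoter, the short cAMP-induced repressor ICER. The pathway is known in this lineage for red hair variants of MC1R, for pigment loss with defects of EDNRB, and for mutations of GNAQ and GNA11 in blue naevi and uveal melanoma.

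The study asked what BPTF, the largest subunit of the NURF chromatin remodelling complex, does in pigment cells, and RNA-seq was performed on human cell lines infected with lentivirus expressing short hairpin RNA against BPTF (shBPTF) and selected with puromycin. The libraries comprised 2 of 501Mel shBPTF, a melanoma cell line, and 3 of Hermes 3A shBPTF, an immortalised human melanocyte line. No control hairpin libraries were analysed here, so that the comparison is between the lines, both silenced, and the effect of the silencing itself was not tested. Each group is a single cell line, and cells of both were grown in RPMI medium with foetal calf serum, but the Hermes 3A medium also held the phorbol ester TPA, cholera toxin, human stem cell factor and endothelin-1. Cholera toxin acts on the GNAS product, endothelin-1 is a ligand of EDNRB and TPA activates protein kinase C, so that cell line and culture medium cannot be told apart in any difference below. The hairpin carried by each library is not given in the labels.

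The libraries held 30073071 to 43032311 counts, and levels are given as CPM, the share of a library's counts scaled to 1000000. Here 3 counts correspond to 0.0697 to 0.0998 CPM, a limit that covers counting error only. Hermes 3A replicate 1 stood apart from replicates 2 and 3, with a chi-square per gene of 88.7 and 90.1 against them, where replicates 2 and 3 differed by 19.8, and the 501Mel replicates differed from each other by 69.7. BPTF, the targeted gene, had 65.8 and 57.8 CPM in 501Mel cells against 45.8, 51.6 and 54.1 CPM in Hermes 3A cells, and without a control these levels do not check the silencing. Both lines expressed the melanocyte regulators MITF (643 to 854 CPM over the 5 libraries) and SOX10 (319 to 517 CPM) and the pigment genes PMEL, MLANA, TYR and TYRP1. Of the 9 melanocyte markers, 4 were called higher in Hermes 3A cells by the test described in the next paragraph, as were 24.1% of all tested genes. Their log2 fold changes, 501Mel minus Hermes 3A, were -0.68 for SOX10 (edgeR adjusted p = 0.00671), -1.39 for PMEL (0.0149), -1.22 for MLANA (0.0229) and -0.91 for TYR (0.0246). TYRP1 (-1.04, 0.0585), MITF, KIT and S100B were not called. The calls of PMEL (-1.07, 0.0837), MLANA (-0.84, 0.106) and TYR (-0.56, 0.0886) were lost without 501Mel replicate 1, that of PMEL also without Hermes 3A replicate 3 (-1.32, 0.0707) and that of TYR also without Hermes 3A replicate 2 (-0.95, 0.0513). The melanin enzyme DCT was called higher in 501Mel cells, at 1068 and 1300 CPM against 7.37 to 13.1 CPM in Hermes 3A cells. The part of these markers in the results was not tested. Of the 6 fibroblast markers, whose summed level was 4.31 to 18.9 CPM in 501Mel and 78.3 to 189.8 CPM in Hermes 3A cells, COL1A2 alone was called, at 69.5, 180.1 and 187.2 CPM in Hermes 3A cells, while DCN did not exceed 0.163 CPM in any library. Of the other fibroblast markers, LUM reached 8.34 CPM, COL1A1 6.53 CPM and PDGFRA 2.58 CPM, each highest in 501Mel replicate 1. The part of COL1A2 or its source in the results was not tested. Of the keratinocyte markers, TP63 did not exceed 0.599 CPM, and the widely expressed KRT10 was at 32.6 to 47.4 CPM. Both were called higher in Hermes 3A cells, TP63 with a log2 fold change of -2.86 (edgeR adjusted p = 0.00716) and KRT10 with -0.49 (0.035). The TP63 call was lost without 501Mel replicate 2 (-2.56), and that of KRT10 on leaving out any 1 library except Hermes 3A replicate 1 (-0.59 to -0.45). KRT14 was listed for 501Mel cells and had at most 1 count there, and KRT5 and KRT1 had no row in the counts of either line.

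Differences were tested by the edgeR quasi-likelihood test over 17918 genes that passed a filter on low counts, and a gene was called where its adjusted p (Benjamini-Hochberg) was 0.05 or less. The lines differed widely, as 48.4% of all tested genes were called, 24.3% higher in 501Mel and 24.1% higher in Hermes 3A cells. With a fitted fold of at least 2 as well, the shares were 17.2% and 17.1%. Of the 10 members 8 passed the filter, 6 were called, and 5 had a fold of at least 2. EDNRB, PDE4B and CREM were higher in 501Mel cells, MC1R and GNA11 were higher in Hermes 3A cells, and GNAS was higher in Hermes 3A cells by a smaller fold. In these bulk libraries, fewer cells expressing a gene and less RNA per cell cannot be told apart. GNAQ and PDE4D were not called, and EDN1 and POMC were too low to test. Where the libraries of the lines are said below not to overlap, this describes the values only. How many of all tested genes were separated in the same way was not computed.

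**Figure D1:**
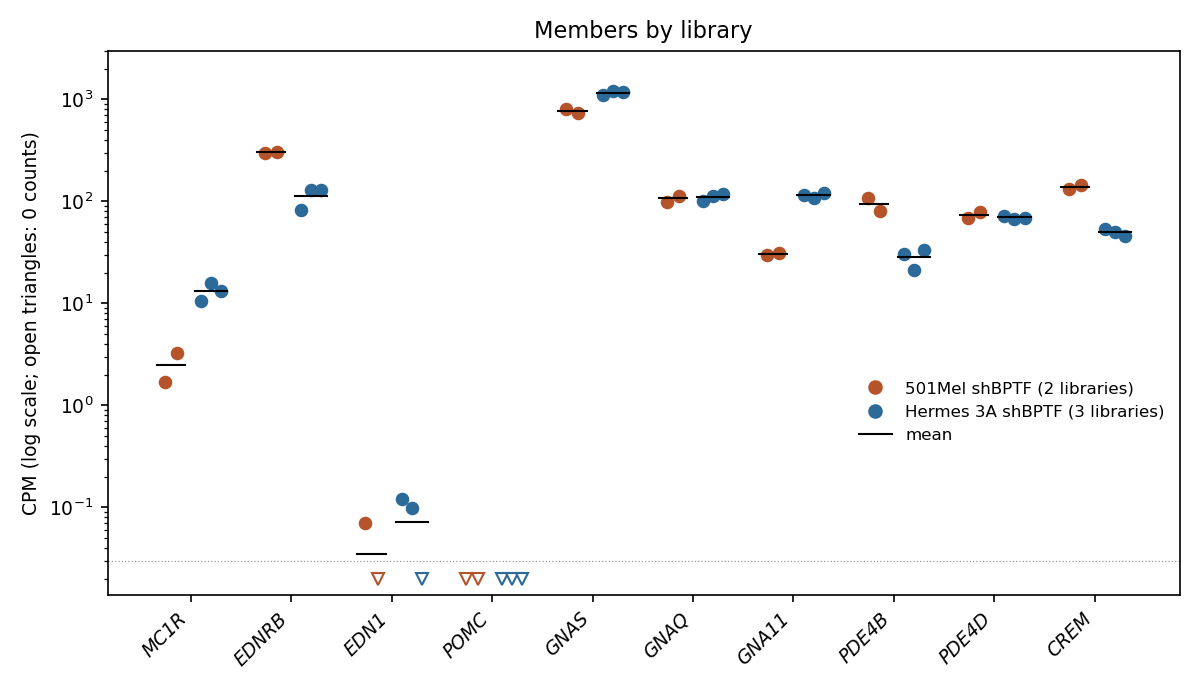
CPM of the 10 members in each library on a log axis, with 501Mel shBPTF in orange (2 libraries), Hermes 3A shBPTF in blue (3 libraries), group means as black lines and counts of 0 as open triangles below the dotted line. The points of the lines are separated for MC1R, EDNRB, GNAS, GNA11, PDE4B and CREM and intermingle for GNAQ and PDE4D. The share of all tested genes separated in this way was not computed, and 48.4% of all tested genes were called.

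The DNA just upstream of a start site was read from RefSeq sequences on GRCh38.p14, and is shown for the receptors and for CREM where it held a motif of MITF, the regulator of pigment genes, or of the CREB family. RefSeq gave 35 start sites for 9 members, and GNAQ had no entry. The 250 bases before each start were searched on both strands for CATGTG, the core of the M-box bound by MITF (read as CACATG on the other strand), and for TGACGTCA, the cAMP response element bound by CREB and CREM, which reads the same on both strands. The letters CATGTG were found before 7 of the 35 starts, among them the only MC1R start and 1 of 2 EDNRB starts, and 9.42% of all 35116 promoters in the table hold them. The letters TGACGTCA were found before 1 of the 35 starts, that of an internal CREM promoter, against 1.65% of all promoters. Its first 5 letters, TGACG, were found on either strand before 7 of the 35 starts, against 21.2% of all promoters. The matches shown lie 64 bases (MC1R), 151 bases (EDNRB) and 50 bases (CREM) before the start, counted from their first base. Each sequence is given 5′ to 3′ on the strand of its gene, with the match in capitals. The MC1R and CREM windows were kept to 30 bases because GENCODE 29 places an exon of another transcript of the same gene over all or part of them, and the EDNRB window lies on the other strand from an exon of the antisense gene RNF219-AS1.
MC1R, chr16:89918786-89918815, plus strand: tcacgcccccggCATGTGgccgccctcagt
EDNRB, chr13:77919768-77919893, minus strand: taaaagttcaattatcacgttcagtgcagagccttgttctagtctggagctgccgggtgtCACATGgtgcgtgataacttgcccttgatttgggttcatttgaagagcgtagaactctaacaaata
CREM, chr10:35195841-35195870, plus strand: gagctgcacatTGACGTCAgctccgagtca
A match is a description of the letters only, and no binding was measured here.

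MC1R (ENSG00000258839) lies at chr16:89912119-89920977 on the plus strand of GRCh38, as annotated by GENCODE 29. It was counted 73 and 123 times in 501Mel cells against 441, 655 and 395 times in Hermes 3A cells. This is 1.7 and 3.25 CPM in 501Mel cells (2.47 ± 1.1, SD, n = 2) and 10.6, 16.0 and 13.1 CPM in Hermes 3A cells (13.3 ± 2.72, SD, n = 3). Every Hermes 3A library was above both 501Mel libraries. MC1R was 5.56-fold higher in Hermes 3A cells (95% interval 3.01 to 10.3), a log2 fold change, 501Mel minus Hermes 3A, of -2.48 (SE 0.377, edgeR adjusted p = 0.00191).

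The MC1R locus is crowded, and the counting rule for reads in shared exons is not given in the sources used here. Its exons share 547 bp with TCF25 upstream, 899 bp with the antisense gene AC092143.2 and 1192 bp, or 21.4% of their length, with AC092143.1, a readthrough gene that joins MC1R to TUBB3. The antisense gene had 0 to 2 counts in a library. The readthrough gene had 23 and 32 counts in 501Mel and 1, 5 and 3 counts in Hermes 3A cells, the opposite direction to MC1R. When its counts were added to those of MC1R, the log2 fold change was -2.13 (edgeR adjusted p = 0.00293). Both flanking genes were higher in Hermes 3A cells, TCF25 with a log2 fold change of -1.25 (edgeR adjusted p = 0.00265) and the tubulin gene TUBB3 with -3.7 (0.000267), and any part of their reads in the MC1R count was not tested.

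EDNRB (ENSG00000136160, chr13:77895481-77975529, minus strand) went in the opposite direction. Its counts were 12945 and 11540 in 501Mel cells against 3455, 5242 and 3872 in Hermes 3A cells. The 501Mel libraries were nearly identical at 300.8 and 304.8 CPM (302.8 ± 2.84, SD, n = 2). The Hermes 3A libraries were at 82.9, 128.3 and 128.8 CPM (113.3 ± 26.3, SD, n = 3), with the lowest value in replicate 1. EDNRB was 2.57-fold higher in 501Mel cells (95% interval 1.89 to 3.5), a log2 fold change of 1.36 (SE 0.19, edgeR adjusted p = 0.00132). Without Hermes 3A replicate 1 the log2 fold change was 1.18 (edgeR adjusted p = 0.000828). The antisense genes at the locus were nearly silent, with 5 to 16 counts for RNF219-AS1, which shares 80 bp with EDNRB exons, and at most 2 counts for EDNRB-AS1.

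The balance between the receptors within a library differed accordingly. The ratio of MC1R to EDNRB counts was 0.00564 and 0.0107 in 501Mel cells against 0.128, 0.125 and 0.102 in Hermes 3A cells. The groups did not overlap and the mean log2 ratios differed by -3.92, a 15.2-fold difference. Both 501Mel libraries were below every Hermes 3A library for MC1R and above every one for EDNRB, so that the ratios could not overlap. The ratio restates these differences and is no separate result. An exact permutation test gave a two-sided p of 0.1, the smallest that 2 against 3 libraries allow, which the same separation fixed in advance.

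The ligand genes were at the limit of detection. EDN1 (ENSG00000078401, chr6:12290363-12297194, plus strand) had 3 and 0 counts in 501Mel cells against 5, 4 and 0 counts in Hermes 3A cells, so that no difference was detectable at this depth. Without the low-count filter its log2 fold change was -1.12 (SE 1.37, edgeR adjusted p = 0.574). POMC (ENSG00000115138, chr2:25160853-25168903, minus strand) had 0 counts in all 5 libraries, which allows at most 0.0697 to 0.0998 CPM depending on the library.

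GNAS (ENSG00000087460, chr20:58839718-58911192, plus strand), the stimulatory alpha subunit downstream of MC1R and the member with the highest level per kb in both lines, was counted 34780 and 28143 times in 501Mel cells against 45980, 49158 and 35262 times in Hermes 3A cells. The levels were 808.2 and 743.4 CPM in 501Mel (775.8 ± 45.8, SD, n = 2) and 1103.9, 1202.9 and 1172.5 CPM in Hermes 3A cells (1159.8 ± 50.7, SD, n = 3). The groups did not overlap, and GNAS was 1.56-fold higher in Hermes 3A cells, with a log2 fold change of -0.64 (SE 0.158, edgeR adjusted p = 0.0132). This call was lost without 501Mel replicate 2 (-0.61, edgeR adjusted p = 0.0665) and without Hermes 3A replicate 3 (-0.68, 0.0538). GNAS makes several transcripts from separate promoters, which the gene count does not separate, and its exons share 1127 bp with the antisense gene GNAS-AS1, counted 17 to 176 times.

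The alpha subunits downstream of EDNRB, whose proteins are close relatives, did not move together. GNAQ (ENSG00000156052, chr9:77716087-78031458, minus strand) was counted 4295 and 4313 times in 501Mel cells against 4205, 4630 and 3540 times in Hermes 3A cells. It stood at 99.8 and 113.9 CPM in 501Mel (106.9 ± 9.99, SD, n = 2) and 101.0, 113.3 and 117.7 CPM in Hermes 3A cells (110.7 ± 8.69, SD, n = 3). The groups overlapped, with a log2 fold change of -0.11 whose 95% interval ran from -0.43 to 0.21 (edgeR adjusted p = 0.531).

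GNA11 (ENSG00000088256, chr19:3094410-3124004, plus strand) was counted 1289 and 1175 times in 501Mel cells against 4786, 4409 and 3628 times in Hermes 3A cells. It was at 30.0 and 31.0 CPM in 501Mel (30.5 ± 0.766, SD, n = 2) and 114.9, 107.9 and 120.6 CPM in Hermes 3A cells (114.5 ± 6.38, SD, n = 3). The replicates were tight and the groups far apart. GNA11 was 3.93-fold higher in Hermes 3A cells, a log2 fold change of -1.97 (SE 0.146, 95% interval -2.32 to -1.63, edgeR adjusted p = 0.000112), the smallest adjusted p among the members. Its exons share 452 bp with the antisense gene AC005262.2 and 472 bp with the antisense gene KF456478.1, which were listed for neither line. Any part of their reads in the GNA11 count was not tested. The ratio of GNAQ to GNA11 counts was 3.33 and 3.67 in 501Mel cells against 0.879, 1.05 and 0.976 in Hermes 3A cells. The mean log2 ratios differed by 1.86 (exact permutation test, two-sided p = 0.1, the smallest possible here).

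The member phosphodiesterases PDE4B and PDE4D also differed from each other. PDE4B (ENSG00000184588, chr1:65792514-66374579, plus strand), a cAMP phosphodiesterase, was counted 4628 and 3067 times in 501Mel cells against 1259, 879 and 1004 times in Hermes 3A cells. It was at 107.5 and 81.0 CPM in 501Mel (94.3 ± 18.8, SD, n = 2) and 30.2, 21.5 and 33.4 CPM in Hermes 3A cells (28.4 ± 6.15, SD, n = 3). The lowest 501Mel library was well above the highest Hermes 3A library. PDE4B was 3.16-fold higher in 501Mel cells, a log2 fold change of 1.66 (SE 0.231, 95% interval 1.12 to 2.21, edgeR adjusted p = 0.00131).

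PDE4D (ENSG00000113448, chr5:58969038-60522120, minus strand), which encodes a phosphodiesterase of the same family, was counted 2952 and 2955 times in 501Mel cells against 3028, 2720 and 2088 times in Hermes 3A cells. It was at 68.6 and 78.1 CPM in 501Mel (73.3 ± 6.69, SD, n = 2) and 72.7, 66.6 and 69.4 CPM in Hermes 3A cells (69.6 ± 3.07, SD, n = 3). The groups overlapped, and the log2 fold change was 0.01, with a 95% interval of -0.33 to 0.35 (edgeR adjusted p = 0.96). The long noncoding gene PART1, which lies on the opposite strand and shares 227 bp with PDE4D exons, was higher in 501Mel cells, with 666 and 915 counts against 102, 140 and 90 counts. Whether its reads entered the PDE4D count was not tested. The ratio of PDE4B to PDE4D counts was 1.57 and 1.04 in 501Mel cells against 0.416, 0.323 and 0.481 in Hermes 3A cells, a difference of 1.67 in mean log2 ratio (exact permutation test, two-sided p = 0.1, the smallest possible here).

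**Figure D2:**
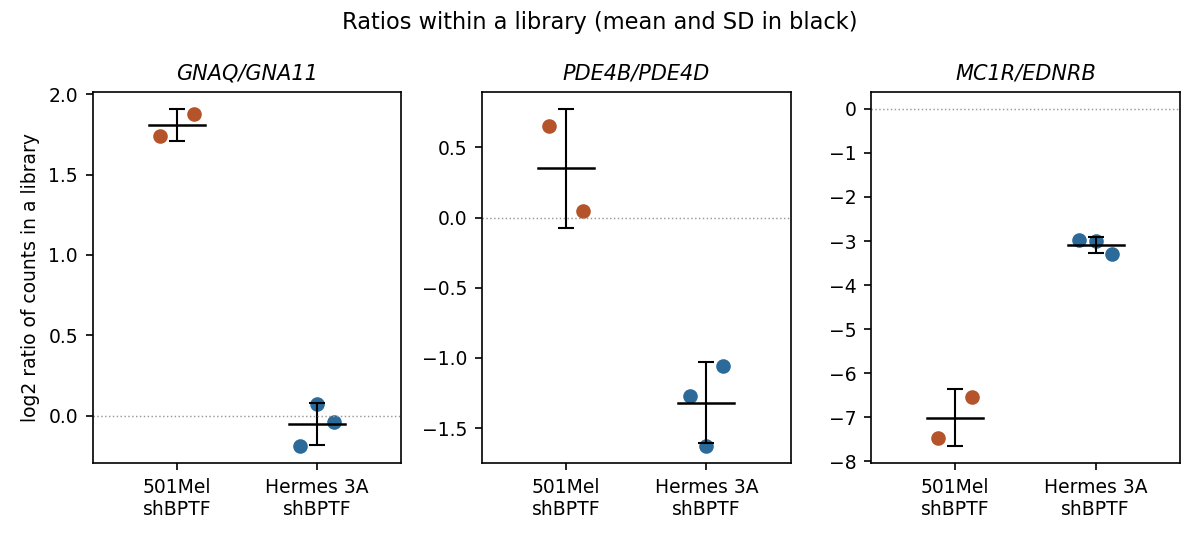
The log2 ratio of counts in each library for GNAQ over GNA11, PDE4B over PDE4D and MC1R over EDNRB, with 501Mel shBPTF in orange and Hermes 3A shBPTF in blue, and the mean and SD in black (n = 2 and n = 3). The ratios of the lines do not overlap in any panel, with differences of 1.86, 1.67 and -3.92 on the log2 scale. For MC1R over EDNRB this follows from the separation of each gene in opposite directions.

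CREM (ENSG00000095794, chr10:35126791-35212958, plus strand), the cAMP-responsive factor at the end of the pathway, was counted 5694 and 5467 times in 501Mel cells against 2245, 2042 and 1380 times in Hermes 3A cells. Its levels were 132.3 and 144.4 CPM in 501Mel (138.4 ± 8.55, SD, n = 2) and 53.9, 50.0 and 45.9 CPM in Hermes 3A cells (49.9 ± 4.0, SD, n = 3). Both 501Mel libraries were above all Hermes 3A libraries. CREM was 2.65-fold higher in 501Mel cells, a log2 fold change of 1.4 (SE 0.146, 95% interval 1.06 to 1.75, edgeR adjusted p = 0.0004). The gene count adds the full-length transcripts to those of internal promoters, so that the ICER repressor was not measured separately. Whether the internal start shown above is that of ICER was not tested. CREM exons share 205 bp with the antisense gene AL392046.1, which had 1 to 6 counts in a library.

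**Figure D3:**
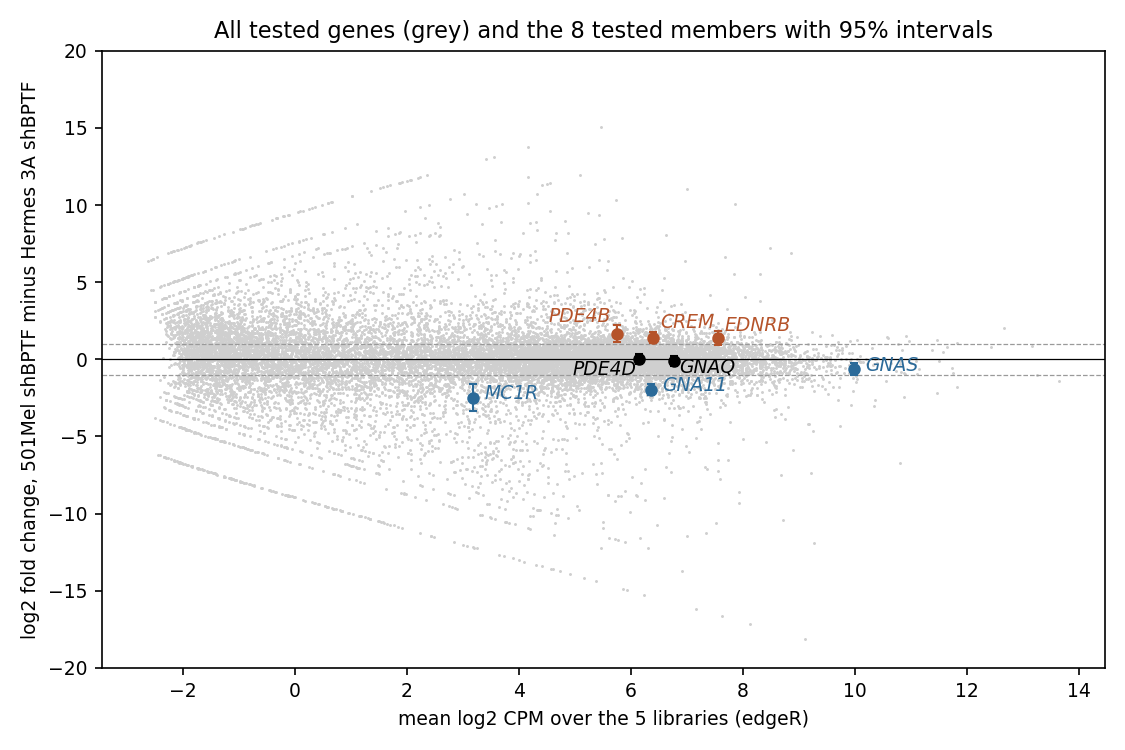
The log2 fold change of 501Mel shBPTF minus Hermes 3A shBPTF against mean log2 CPM for all 17918 tested genes (grey), with the 8 tested members and their 95% intervals. Members called higher in 501Mel cells are orange, those called higher in Hermes 3A cells are blue, GNAQ and PDE4D, which were not called, are black, and dashed lines mark a fold of 2.

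To compare members with each other, CPM was divided by the length of all exons of the gene in kb. In 501Mel cells GNAS (58.2 CPM per kb) came first, followed by EDNRB (54.0), CREM (24.3), GNAQ (16.1), PDE4B (10.9), GNA11 (4.89), PDE4D (4.5), MC1R (0.444) and EDN1 (0.0171), each separated from the next by the ranges of the 2 libraries. EDN1 and POMC overlapped at 0. In Hermes 3A cells GNAS (87.1 CPM per kb) again came first, EDNRB (20.2), GNA11 (18.3) and GNAQ (16.7) followed with ranges that overlapped from each to the next, and CREM (8.76) and PDE4D (4.27) came below them. PDE4B (3.28) and MC1R (2.38) overlapped, and EDN1 (0.0357) and POMC were last. With the median transcript length of each gene in place of all exons, only 5 members in 501Mel and 4 in Hermes 3A cells kept their place, so that the middle of the order depends on the length used. GNAS stayed first and MC1R, EDN1 and POMC stayed last in both lines.

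The wider pathway was described with 10 lists holding 120 distinct genes other than the members, of which 106 were tested. Of these, 44 were called with a fold of at least 2, or 41.5% against 34.3% of all tested genes, 17 higher in 501Mel and 27 higher in Hermes 3A cells. The median log2 fold change was -0.11, against 0.023 for all genes. No list was tested as a set.

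Among 13 genes for melanocortin ligands, receptors and accessory proteins, 7 were tested. At a fold of at least 2, 1 was higher in 501Mel and 3 were higher in Hermes 3A cells (57.1% against 34.3% of all tested genes). PCSK1, the prohormone convertase that makes the first cuts in POMC, had 10 and 6 counts in 501Mel cells against 5617, 2746 and 1957 counts in Hermes 3A cells, or 0.232 and 0.158 CPM against 134.9, 67.2 and 65.1 CPM (edgeR adjusted p = 7.29e-05). The carboxypeptidase CPE, which trims the products, was at 0.163 and 0.0528 CPM against 13.8, 3.6 and 5.99 CPM. The melanocortin receptor accessory protein MRAP2 had 3 and 0 counts in 501Mel cells against 174 to 216 counts in Hermes 3A cells. The convertase PCSK2 was higher in 501Mel cells, at 7.85 and 1.69 CPM against 0.2 to 0.864 CPM (log2 fold change 3.2, edgeR adjusted p = 0.0139), a call that was lost without 501Mel replicate 1 (1.72, 0.147). The melanocortin receptors MC2R, MC4R and MC5R had at most 22 counts in any library, and the most abundant gene of the list, ATRN (attractin), was at 138.9 to 179.0 CPM without a called difference. Convertase mRNA was thus measured in lines where POMC itself had 0 counts.

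Of 6 genes for other endothelin ligands, receptors and converting enzymes, 3 were tested. EDNRA, the second endothelin receptor, had 3 and 1 counts in 501Mel cells and was at 4.27, 0.954 and 0.765 CPM in Hermes 3A cells (log2 fold change -5.36, SE 1.17, edgeR adjusted p = 0.00835), and lost its call without 501Mel replicate 2 (-4.91, 0.0515). Its highest value was in Hermes 3A replicate 1, the library with the lowest EDNRB. The converting enzyme ECE1, which releases mature endothelin, was at 77.7 and 102.8 CPM in 501Mel and 52.2 to 86.5 CPM in Hermes 3A cells and was not called. EDN2 had at most 2 counts in a library.

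All 9 adenylyl cyclases, the enzymes that make cAMP, were tested, with a median log2 fold change of -0.67. At a fold of at least 2, 1 was higher in 501Mel and 3 were higher in Hermes 3A cells (44.4% against 34.3% of all tested genes). ADCY2 was at 63.5 and 62.0 CPM in 501Mel cells against 0.264, 1.62 and 1.56 CPM in Hermes 3A cells (log2 fold change 5.74, SE 0.577, edgeR adjusted p = 0.00035). ADCY6, which had the highest mean CPM of the cyclases over all libraries but not within 501Mel cells, was at 38.9 and 36.3 CPM against 182.5, 192.1 and 203.0 CPM (-2.42, SE 0.139, 4.28e-05). ADCY8 and ADCY4 were also called higher in Hermes 3A cells but at low levels, at most 7.68 and 1.57 CPM, and ADCY4 lost its call without 501Mel replicate 1 (-3.43, edgeR adjusted p = 0.0888) or replicate 2 (-2.67, 0.117).

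Protein kinase A is a tetramer of catalytic and regulatory subunits, and a regulatory subunit gene had the largest fold among the 11 genes tested for the kinase, its inhibitors and the cAMP sensor EPAC. PRKAR1A was at 54.7 and 40.0 CPM in 501Mel cells against 745.9, 627.6 and 649.3 CPM in Hermes 3A cells. It was 14.9-fold higher in Hermes 3A cells (95% interval 10.3 to 21.7, log2 fold change -3.9, SE 0.229, edgeR adjusted p = 4.53e-05). The catalytic subunit PRKACB went the other way, at 132.5 and 140.3 CPM against 51.1, 53.2 and 53.2 CPM (1.31, SE 0.124, 0.000269), as did the regulatory subunit PRKAR1B (1.09, SE 0.18, 0.00265). The list median was 0.62. At a fold of at least 2, 2 genes were higher in 501Mel and 1 was higher in Hermes 3A cells (27.3% against 34.3% of all tested genes).

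Of 14 other cAMP phosphodiesterases, 9 were called at a fold of at least 2, with 5 higher in 501Mel and 4 higher in Hermes 3A cells. This share of 64.3% was close to the 63.6% of the cAMP-responsive genes below, against 34.3% of all tested genes. PDE3A was at 219.8 and 142.7 CPM in 501Mel cells against 8.21, 7.86 and 5.02 CPM in Hermes 3A cells (log2 fold change 4.61, SE 0.282, edgeR adjusted p = 5.33e-05). PDE7B was at 27.6 and 20.7 CPM against 0.144, 0.196 and 0 CPM. PDE1C had 6 and 2 counts in 501Mel cells and was at 22.1, 7.17 and 10.7 CPM in Hermes 3A cells, and PDE1B had 0 counts in both 501Mel libraries and 58, 64 and 76 counts in Hermes 3A cells. PDE4A, of the same family as the members, was higher in Hermes 3A cells, at 6.2 and 3.7 CPM against 29.0, 13.8 and 9.58 CPM (-1.9, SE 0.534, 0.0221), the opposite direction to PDE4B. Its call was lost without 501Mel replicate 1 (-2.31, 0.0523) or replicate 2 (-1.6, 0.113). PDE4C did not exceed 0.954 CPM and was not called. The summed CPM of the list was 301.5 to 432.2 in 501Mel and 126.7 to 158.7 in Hermes 3A cells. PDE3A alone held 219.8 and 142.7 CPM of the 501Mel sums and 5.02 to 8.21 CPM of the Hermes 3A sums, so that the gap rests largely on this gene.

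Among 10 genes of the CREB family, its coactivators and their inhibitory kinases, 1 was higher in each line at a fold of at least 2. This is 20.0% called, against 34.3% of all tested genes. The coactivator CRTC1 was at 15.7 and 19.4 CPM in 501Mel and 47.3, 50.3 and 45.1 CPM in Hermes 3A cells (log2 fold change -1.5, SE 0.176, edgeR adjusted p = 0.00066). The salt-inducible kinase SIK1, itself induced by cAMP, was at 35.3 and 76.9 CPM against 23.1, 25.0 and 27.1 CPM (1.11, SE 0.307, 0.0211). Without 501Mel replicate 2 its log2 fold change was 0.41 (edgeR adjusted p = 0.172), and leaving out any Hermes 3A replicate also ended the call (1.03 to 1.12, 0.0507 to 0.064). The acetyltransferase EP300 had the highest mean CPM of the list, at 243.6 and 234.5 CPM against 160.9 to 182.5 CPM (0.4, 0.0346). This call was lost on leaving out any 1 of the 5 libraries (0.34 to 0.4). Without Hermes 3A replicate 1 the edgeR adjusted p was just above the threshold and rounds to 0.05, and without Hermes 3A replicate 2 it was 0.173.

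Of 13 genes known to respond to cAMP (SIK1 among them, as in the list before), 11 were tested, and the median log2 fold change was -1.12. At a fold of at least 2, 2 were higher in 501Mel and 5 were higher in Hermes 3A cells (63.6% against 34.3% of all tested genes). The genes higher in Hermes 3A cells were the nuclear receptors NR4A1, NR4A2 and NR4A3, the G protein regulator RGS2 and the neuropeptide precursor VGF. The calls of NR4A3 without 501Mel replicate 1 (-1.04, edgeR adjusted p = 0.0689) and of RGS2 without 501Mel replicate 2 (-1.54, 0.0958) were lost. NR4A1 was at 62.4 and 32.6 CPM against 305.1, 181.8 and 202.8 CPM (-2.35, SE 0.365, edgeR adjusted p = 0.00205), and VGF was at 308.4 and 232.5 CPM against 1220.5, 855.7 and 837.5 CPM (-1.92, SE 0.263, 0.00124). PPARGC1A, a metabolic coactivator, was higher in 501Mel cells, at 62.0 and 93.5 CPM against 9.51, 7.17 and 8.18 CPM (3.16, SE 0.246, 0.00013). CREM, a cAMP-responsive gene not counted in this list, was higher in 501Mel cells, as given above. Cholera toxin, which raises cAMP, was in the Hermes 3A medium alone, and its part in these levels was not tested.

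Of 18 genes that act with or below GNAQ and GNA11, 15 were tested. At a fold of at least 2, 2 were higher in 501Mel and 3 were higher in Hermes 3A cells (33.3%, near the 34.3% of all tested genes). The phospholipase PLCB4 was at 48.0 and 73.0 CPM in 501Mel and 4.54, 1.05 and 0.831 CPM in Hermes 3A cells (log2 fold change 4.71, SE 0.711, edgeR adjusted p = 0.00184), and PLCB1 was at 35.9 and 11.9 CPM against 1, 0 and 1 counts. The Gq-coupled leukotriene receptor CYSLTR2 had 2 and 0 counts in 501Mel cells against 6526, 4283 and 3706 counts in Hermes 3A cells. The inositol trisphosphate receptor ITPR3 was at 2.51 and 2.72 CPM against 134.0, 183.4 and 184.1 CPM (-6.06, SE 0.219, 1.01e-05). TRIO, a guanine nucleotide exchange factor, had the highest mean CPM, at 343.3 and 386.5 CPM against 227.3 to 269.1 CPM (0.48, 0.0279), a call lost without 501Mel replicate 2 (0.36, 0.157), Hermes 3A replicate 2 (0.42, 0.131) or Hermes 3A replicate 3 (0.49, 0.0864).

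All 13 other G protein subunits were tested. At a fold of at least 2, 2 were higher in 501Mel and 3 in Hermes 3A cells (38.5%, near the 34.3% of all tested genes). The inhibitory alpha subunits split, as GNAI3 was at 279.6 and 295.1 CPM in 501Mel and 92.1, 87.9 and 73.1 CPM in Hermes 3A cells (log2 fold change 1.7, SE 0.156, edgeR adjusted p = 0.000244), while GNAI2 was at 142.6 and 133.5 CPM against 377.6, 401.0 and 403.7 CPM (-1.58, SE 0.138, 0.000204). GNAO1 was at 85.9 and 59.2 CPM against 0.744, 4.62 and 2.56 CPM (4.73, SE 0.599, 0.000892). The beta subunit GNB2 was higher in Hermes 3A cells (-1.2, SE 0.128, 0.000442). GNB1, the subunit with the highest CPM in every library, at 604.1 to 866.9 CPM, differed less (-0.47, 0.0408) and lost its call on leaving out any 1 library except Hermes 3A replicate 1 (-0.54 to -0.45, 0.0778 to 0.136) and with total counts as the only scaling (-0.4, 0.0547).

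Among 14 receptor kinases, arrestins and RGS proteins, which switch receptor signals off, 2 were higher in 501Mel and 3 higher in Hermes 3A cells at a fold of at least 2. This is 35.7% called, near the 34.3% of all tested genes. The receptor kinase GRK3 was at 28.5 and 26.2 CPM in 501Mel and 5.79, 7.66 and 9.31 CPM in Hermes 3A cells (log2 fold change 1.79, SE 0.236, edgeR adjusted p = 0.00104), and GRK5 went the other way, at 13.7 and 13.3 CPM against 32.8, 41.2 and 38.8 CPM. RGS3 was at 4.74 and 1.72 CPM against 34.7, 38.9 and 41.3 CPM (-3.63, SE 0.423, 0.000639), and RGS4 had 2 and 0 counts against 59, 42 and 20 counts. RGS1 was at 13.9 and 1.77 CPM against 0.0665 to 1.06 CPM (4.11, 0.0264), and its call was lost without 501Mel replicate 1 (1.99, 0.269), Hermes 3A replicate 2 (3.57, 0.064) or Hermes 3A replicate 3 (3.58, 0.0692). GRK2, which had the highest CPM of the list as a mean over all libraries, was at 39.3 to 53.3 CPM and was not called, and GRK6 was above it in 501Mel cells at 62.3 and 64.4 CPM.

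The genes whose pattern over the 5 libraries was nearest to each receptor were found among 131 other tested genes, namely the members, the pathway lists, the cell type markers and the overlapping neighbours, by the Euclidean distance of log2 CPM deviations from the mean. The nearest to MC1R were PRKCA, protein kinase C alpha (distance 0.512), ADCY6 (0.804) and the member GNA11 (0.962). The nearest to EDNRB were PRKACB (0.477), GRK3 (0.509) and PDE3B (0.526). PRKCA was at 8.53 and 14.4 CPM in 501Mel and 52.1, 51.3 and 50.6 CPM in Hermes 3A cells, and PDE3B was at 25.6 and 20.9 CPM against 4.35, 7.61 and 7.45 CPM. With 5 libraries in 2 groups, the distance mostly reflects the size of the difference between the lines.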

How the data were processed

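RNA-seq of total RNA depleted of ribosomal RNA was performed on 5 libraries, which per the labels were treated with a duplex-specific nuclease that removes part of the abundant sequences, so that high levels may be compressed. The authors deposited raw read counts per gene, named by Ensembl identifier and without normalization. The submitters' processing notes name CASAVA 1.8, TopHat 1.4.1, Bowtie 0.12.7 and hg19. The counting program, its annotation, its handling of shared exons and its strand setting are not given in the sources used here. Counts were made on hg19, whereas the symbols, positions and lengths printed are those of GENCODE 29 on GRCh38. The 501Mel and Hermes 3A tables list 37259 and 34033 genes, and the 31029 in both (29317 named by GENCODE 29) were used.

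Libraries were grouped by the cell line in their labels. CPM is the count of a gene per 1000000 counts of its library. Genes passing filterByExpr were compared with edgeR 4.0.16 (TMM, glmQLFit and glmQLFTest, Benjamini-Hochberg adjustment) in R 4.3.3, without a replicate block. The SE is the log2 fold change divided by the root of F. DESeq2 1.42.0, other scalings, no filter, a replicate block and each library left out were tried as alternatives. The test was also run on simulated data in which only 200 genes were changed. In the measured data 48.4% of the tested genes were called, so that the simulation does not check the test in this setting. The labels do not say whether replicates were separate cultures, and p-values measure only the spread between these libraries. The EDN1/EDNRB ratio was planned and not computed, since EDN1 had at most 5 counts. No library was scored for outliers, as groups held 2 and 3.

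The members and lists were chosen with earlier results of these data known. Named genes are every member, BPTF, in each list up to 2 called genes with the largest fold in each direction (fold of at least 2) and the gene of highest mean CPM, the 3 genes nearest to each receptor, and overlapping neighbours. CPE, GRK5, GRK6, NR4A2, NR4A3, RGS2, PDE4A, PDE4C and some markers were named after their values were seen.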

Additional observations from a re-analysis of the deposited data

How the results depend on the processing

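Of the members, MC1R, EDNRB, GNA11, PDE4B and CREM kept their direction and call, and GNAQ and PDE4D were not called, under each of the 11 alternative fits (12 for MC1R). Leaving out each library in turn gave log2 fold changes of -3.05 to -2.08 for MC1R, 1.18 to 1.42 for EDNRB, -2.09 to -1.94 for GNA11, 1.43 to 1.83 for PDE4B and 1.3 to 1.48 for CREM. GNAS gave -0.7 to -0.61 and fell short of the threshold without 501Mel replicate 2 and without Hermes 3A replicate 3. The replicate block gave -0.64 for GNAS (edgeR adjusted p = 0.0698) and changed no other member's call. Among the other genes named it ended the calls of EP300 (0.43, 0.0938), TRIO (0.52, 0.0628), GNB1 (-0.41, 0.186), PMEL (-1.32, 0.0579) and KRT10 (-0.51, 0.085), and EP300 was also lost without the low-count filter (0.36, 0.0979). The numbers were not taken to pair the libraries, since the lines share only 2 numbers and the labels do not say what a number marks. Deviations of same-numbered libraries correlated at 0.104 and 0.121. With 2 501Mel libraries the deviations from their mean mirror each other, so that these correlations are not independent and do not decide the pairing. The MC1R to EDNRB log2 ratio difference was -4.38 to -3.46 with each library left out. Of the members' places in the order of levels, 5 in 501Mel and 4 in Hermes 3A cells were kept with the median transcript length. Without the low-count filter the median of all genes was 0.131. Of 56 other called genes, 39 kept their call in every alternative that tested them, 17 lost it in at least 1, and 0 reversed. The alternatives with genes of one line set to 0, readthrough counts added and ratios without each library were chosen after seeing the data. Depth limited EDN1, whose fit without the filter is given above, and POMC, which had 0 counts.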
